A study of Homo sapiens with 26 samples.

Results

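Described here are 8 genes of acute-phase and complement plasma proteins, listed by name among 19775 genes measured with at least 1 single-gene probe set: the fibrinogen chain genes FGA, FGB and FGG, the protease inhibitor A2M, the copper ferroxidase CP, the complement genes C3 and CFB, and HP, which encodes haptoglobin. All 8 were measured, by 16 single-gene probe sets, and each is represented by its brightest probe set over all 26 arrays. The cells were the MDA-MB-468 line, which was established from a human triple-negative breast cancer (1 label spells it MBA-MB-468), on Affymetrix arrays in an antagonism experiment of 8 arrays and an agonism experiment of 18 arrays. In the antagonism experiment the plates were cultured for 40 h before a treatment of 24 h. A4 plates (2 arrays) received the NOTCH3 antibody anti-N3.A4 at 10 µg/ml with 0.05% DMSO. DAPT plates (3 arrays) received DAPT, a gamma-secretase inhibitor, at 5 µM with 10 µg/ml control anti-gD IgG, and control plates (3 arrays) received that IgG with 0.05% DMSO. In the agonism experiment each group had 3 arrays, and RNA was taken at 24 h. The JAG1 bead, Fc bead, A13, IgG and DAPT plates were first held in 5 µM DAPT for 16 h and then in plain medium for 2 h. They then received beads carrying the Notch ligand JAG1 as an Fc fusion, beads with Fc alone, the NOTCH3 antibody A13 at 20 µg/ml, control IgG at 20 µg/ml, or 5 µM DAPT again. The DMSO plates had 0.05% DMSO before and after the same washout, and the DMSO and the DAPT plates received their agent once more at 22 h. One protocol mentions only 1 DMSO plate, and no label ties the arrays of a group to separate cultures, so the p-values measure the spread between these arrays, which may be technical.

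Acute-phase proteins are secreted mainly by hepatocytes, and in the liver their genes answer interleukin-6, which acts through the transcription factor STAT3, and interleukin-1, which acts through NF-kB, with C/EBP factors at many of the promoters. Fibrinogen is assembled from all of its chains, alpha (FGA), beta (FGB) and gamma (FGG), and is cut by thrombin into fibrin. A2M, an acute-phase protein chiefly in the rat, traps proteases and shares with C3 an ancestral fold with a reactive thioester. C3 is the central complement protein and CFB the protease that drives its alternative pathway, and epithelial cells as well as liver are known to make both. CP carries copper and oxidises iron, and HP binds free haemoglobin. NOTCH3, a Notch receptor, is cut by gamma-secretase when it signals, and the freed part acts with the DNA-binding protein RBPJ.

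FGB, FGA and FGG are consecutive protein-coding genes on chromosome 4 in the RefSeq gene table (GRCh38.p14). Promoter windows of 250 bases before to 50 bases after a gene's start were matched by symbol in RefSeq (GRCh38.p14) for 4 of the 8 genes, and they are shown because FGB, FGG and CFB fell with both agonists while FGA, which lies between FGB and FGG, did not pass. Capitals mark CTGGGAA, whose first letters are the core of the interleukin-6 response element known from fibrinogen genes, the shorter TGGGAA, a core that RBPJ can bind, and TTCNNNGAA, the general form of a STAT site; each was searched on both strands, and CTGGGAA always contains TGGGAA.
FGB (the upstream of its 2 listed starts, chr4:154562730-154563029, plus strand): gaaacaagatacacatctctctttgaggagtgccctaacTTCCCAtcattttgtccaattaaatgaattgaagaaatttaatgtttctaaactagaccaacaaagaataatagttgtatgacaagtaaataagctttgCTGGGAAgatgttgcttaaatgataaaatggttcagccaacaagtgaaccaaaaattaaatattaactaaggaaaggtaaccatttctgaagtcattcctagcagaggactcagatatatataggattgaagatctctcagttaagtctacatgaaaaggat
FGG (chr4:154612607-154612906, minus strand): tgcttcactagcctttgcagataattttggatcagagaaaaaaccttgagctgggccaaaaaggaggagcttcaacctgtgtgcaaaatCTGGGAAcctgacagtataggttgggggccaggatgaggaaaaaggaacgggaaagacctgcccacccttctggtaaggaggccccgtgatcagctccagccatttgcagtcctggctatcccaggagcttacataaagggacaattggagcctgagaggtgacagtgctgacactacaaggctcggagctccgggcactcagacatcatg
FGA (chr4:154590693-154590992, minus strand): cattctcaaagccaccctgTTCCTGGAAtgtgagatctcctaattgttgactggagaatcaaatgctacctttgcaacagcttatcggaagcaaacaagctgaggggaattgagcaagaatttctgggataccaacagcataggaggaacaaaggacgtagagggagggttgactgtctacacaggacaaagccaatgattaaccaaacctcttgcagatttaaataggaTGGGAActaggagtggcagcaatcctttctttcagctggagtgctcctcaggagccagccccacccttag
CFB (chr6:31945845-31946144, plus strand): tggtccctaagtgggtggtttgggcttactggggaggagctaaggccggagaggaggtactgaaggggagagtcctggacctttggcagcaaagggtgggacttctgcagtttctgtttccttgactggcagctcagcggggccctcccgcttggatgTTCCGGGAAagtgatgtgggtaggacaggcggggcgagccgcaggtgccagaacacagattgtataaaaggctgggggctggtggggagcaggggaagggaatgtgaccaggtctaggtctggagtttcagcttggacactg
CTGGGAA occurred once each in the windows of FGB and FGG, at positions -112 and -161 from the start, and did not occur in those of FGA and CFB. It is held by 10.8% of 35116 promoter windows of the same length. The letters CTGGGA without the last A were not searched for or marked. The printed FGA window holds them followed by T (ctgggat), and the FGG window holds them again on the other strand (tcccag). FGA therefore does not lack that core. FGB has a further TGGGAA on the other strand (printed as TTCCCA) and FGA has 1 at position -20, against 24.0% of all windows with TGGGAA. TTCNNNGAA occurred in the windows of FGA, as TTCCTGGAA, and of CFB, as TTCCGGGAA, and in 7.66% of all windows. The longer RBPJ form GTGGGAA, held by 6.25% of windows, was not among the letters of any of these 4. These matches describe letters only.

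Levels are log2 intensities and are set side by side only within an experiment, since the antagonism arrays had medians of 7.60 to 7.65 and the agonism arrays of 6.84 to 6.88. The deposited values carry no detection calls, so a level is given by its percentile among all probe sets of its array. A2M, CP, C3 and CFB were well measured, between percentiles 72.9 and 93.8 on every array. FGG lay between percentiles 53.9 and 85.4 and FGB between 30.2 and 67.3. FGA, at percentiles 32.0 to 45.0, and HP, at 32.3 to 61.4, were low, and both other FGA probe sets also lay below the array median on all 26 arrays. For FGA and HP the probe sets therefore give little ground for calling the transcripts present, and an effect there may not show. FGB lay in the same low range in the agonist groups, at mean percentiles 34.5 with A13 and 36.7 with JAG1 beads. Low signal may thus limit the size of its changes there. Of the epithelial markers 7 of 7 lay above the array median, between mean percentiles 95.3 and 99.8. Of 9 measured hepatocyte markers 3 lay above it in each experiment, with TTR highest at 75.2. Of 7 monocyte and macrophage markers 1 lay above the median on the antagonism arrays and 3 on the agonism arrays, CD14 highest at percentiles 92.85 and 87.0. Of 5 leukocyte markers 2 lay above the median on the antagonism arrays and 1 on the agonism arrays, with CD3E highest at 68.6 and 66.5 and PTPRC, the pan-leukocyte marker, lowest at 22.9 and 15.4. Of 7 fibroblast markers 4 lay above it in each, with LUM at 5.78 and 5.40, and of 6 endothelial markers 4 and 3, with KDR at 19.2 and 30.4. The part of other cells in the results was not tested. In whole-culture RNA, fewer expressing cells and less RNA per cell cannot be told apart.

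The agonist antibody A13 was set against control IgG, both after washout, to show what changed with this antibody. Whether the changes run through NOTCH3 signal was not tested. FGG, CP, CFB and FGB fell and C3 rose slightly. FGG was 7.57, 7.25 and 7.56 with A13, against 9.23, 9.25 and 9.29 with IgG. Every A13 array lay more than a log2 unit below every IgG array, and FGG fell by 1.80 ± 0.07 (log2 change ± SE, 3 arrays against 3, limma adjusted p = 1.82e-11), 3.47-fold lower. FGB, the chain encoded next to FGA, was 6.16, 5.87 and 6.28 with A13, against 6.78, 6.93 and 6.82 with IgG, and fell by 0.74 ± 0.13 (limma adjusted p = 0.00043). CP was 9.17, 8.90 and 9.03 with A13, against 10.02, 9.80 and 10.10 with IgG, and fell by 0.94 ± 0.09 (limma adjusted p = 1.21e-06). The A13 and IgG arrays of FGB and of CP did not overlap either. CFB was 8.35, 8.32 and 8.39 with A13, against 9.10, 9.30 and 9.11 with IgG, and fell by 0.81 ± 0.07 (limma adjusted p = 9.6e-08). C3, the other complement member, went the other way by a small margin, at 9.49, 9.46 and 9.53 with A13, against 9.20, 9.37 and 9.27 with IgG. Its change of 0.21 ± 0.07 had an adjusted p of 0.0470 by limma, which did not hold with array medians centred (adjusted p = 0.0547), with only these 2 groups in the fit (adjusted p = 0.0628), with _x_at and _s_at probe sets dropped (adjusted p = 0.0690) or without A13 array 1, 2 or 3 or IgG array 1 or 3 (adjusted p from 0.0828 to 0.190). A2M changed by -0.16 ± 0.08 (limma adjusted p = 0.192), HP by -0.19 ± 0.08 (limma adjusted p = 0.126) and FGA by -0.18 ± 0.10 (limma adjusted p = 0.283), and none of the 3 passed. In all 1 of 8 genes rose and 4 fell, against 5.68% higher and 9.02% lower of all genes tested, with a median change of -0.46 against -0.03 over all genes.

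The other probe sets bear on these calls. All 4 CP probe sets fell with A13, the 3 besides the brightest by 0.98 to 1.17, each passing over all single-gene probe sets. The second FGB probe set, 216238_s_at, fell by 0.45 ± 0.11 (limma adjusted p = 0.0139 over probe sets), but it was very dim, at percentiles 7.11 to 15.6 of the agonism arrays. The second CFB probe set, 211920_at, changed by -0.16 ± 0.15 (limma adjusted p = 0.620 over probe sets), but it was dim, at percentiles 32.0 to 45.3. FGG, C3 and HP each have 1 single-gene probe set, so their values have no second measurement.

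**Figure D1:**
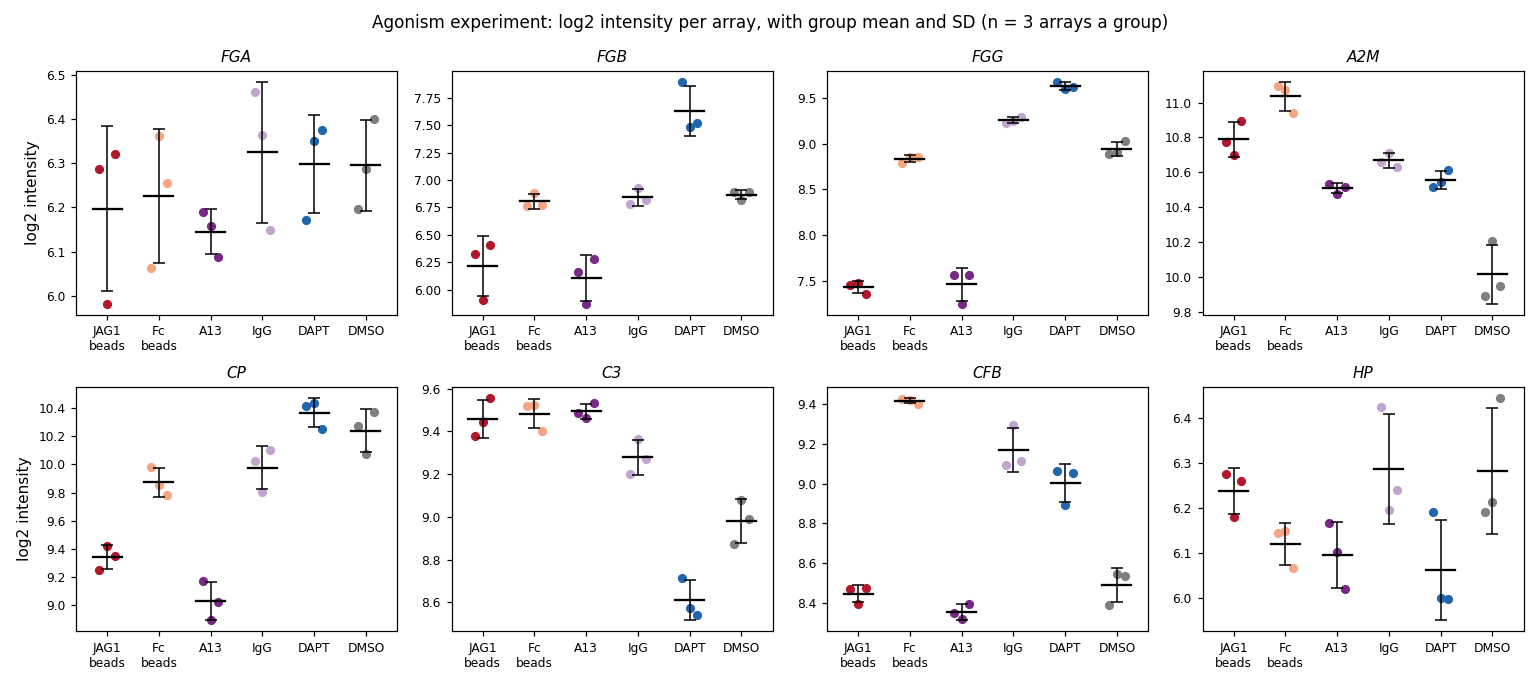
Log2 intensity (vertical axis, a separate range for each gene) of the 8 genes in the 6 groups of the agonism experiment; points are arrays, horizontal lines group means and bars SD (n = 3). FGG, FGB, CP and CFB are low in both agonist groups, JAG1 beads and A13, C3 is lowest with DAPT at 8.61, A2M is lowest with DMSO at 10.01, and FGA and HP spread over less than 0.5 log2 units in all.

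Of the other acute-phase list 2 of 16 measured genes rose with A13 and 1 fell (median -0.04, against -0.03 over all genes). SERPINA3, antichymotrypsin, rose by 0.57 ± 0.07 and LBP, which binds bacterial lipopolysaccharide, by 0.44 ± 0.10, while LCN2, a siderophore-binding lipocalin, fell by 1.06 ± 0.07. Of the other complement genes 1 of 28 rose and 3 fell. CLU, a complement inhibitor and chaperone, fell by 1.03 ± 0.07 and CFI, the protease that inactivates C3b, by 0.68 ± 0.07. C4BPA, a cofactor of that protease, fell by 0.33 ± 0.08, and CD59, which blocks the membrane attack complex, rose by 0.28 ± 0.05. Of the coagulation list 2 of 24 rose and 5 fell, with TFPI2, a protease inhibitor of the extracellular matrix, at -1.46 ± 0.09 and PLAT, tissue plasminogen activator, at 1.02 ± 0.13. Of the IL-6 and STAT3 list 1 of 22 rose and 7 fell, among them JUNB (-0.40 ± 0.07), IL11RA, the interleukin-11 receptor (-0.34 ± 0.07), and CEBPD (-0.29 ± 0.07), while LIF, an IL-6 family cytokine, rose by 0.40 ± 0.11. Of the NF-kB and IL-1 list 2 of 19 rose and 7 fell, with NFKBIZ, a nuclear cofactor needed for a subset of NF-kB targets, at -1.16 ± 0.13, the interleukin-1 antagonist IL1RN at -0.82 ± 0.07, the receptor IL1R1 at -0.70 ± 0.09 and the chemokine CXCL2 at 0.70 ± 0.09. Of 8 hepatocyte transcription factors FOXA1 (-0.90 ± 0.08) and FOXA3 (-0.50 ± 0.09) fell and 0 rose. Among the Notch readouts NRARP, a feedback inhibitor, rose by 1.90 ± 0.07 and MYC by 1.33 ± 0.07. Of the macroglobulin list CD109, a membrane protein related to A2M, rose by 0.21 ± 0.07 and 0 of 7 fell.

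JAG1 beads were set against Fc beads to show what changed with a Notch ligand. FGG, CFB, FGB and CP fell again, and C3 did not pass. FGG was 7.45, 7.48 and 7.36 with JAG1 beads, against 8.79, 8.86 and 8.86 with Fc beads, and fell by 1.41 ± 0.07 (limma adjusted p = 2.41e-09), 2.65-fold lower. CFB was 8.47, 8.40 and 8.47 with JAG1 beads, against 9.43, 9.42 and 9.40 with Fc beads, and fell by 0.97 ± 0.07 (limma adjusted p = 4.18e-08). For both genes the 2 groups lay far apart, with the 3 Fc bead arrays of CFB within 0.03 of each other. FGB was 6.33, 5.90 and 6.41 with JAG1 beads, against 6.76, 6.88 and 6.77 with Fc beads, and fell by 0.59 ± 0.13 (limma adjusted p = 0.00557). CP was 9.25, 9.42 and 9.35 with JAG1 beads, against 9.98, 9.86 and 9.78 with Fc beads, and fell by 0.53 ± 0.09 (limma adjusted p = 0.0014). Neither pair of groups overlapped. C3 was 9.38, 9.44 and 9.56 with JAG1 beads, against 9.52, 9.52 and 9.40 with Fc beads, overlapping groups that differed by -0.02 ± 0.07 (95% interval -0.17 to 0.13). A2M changed by -0.25 ± 0.08 (limma adjusted p = 0.0522) and passed with repeated quantile normalization, with an offset of 16, with the trend and robust variance model, among genes above the median probe set, and without JAG1 array 3 or Fc array 3 (adjusted p from 0.0169 to 0.0398). HP changed by 0.12 ± 0.08 and FGA by -0.03 ± 0.10, and neither passed. In all 0 of 8 rose and 4 fell, against 2.97% higher and 5.14% lower of all genes, with a median of -0.39 against 0.01 over all genes.

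All 4 CP probe sets fell with JAG1 beads as well, the other 3 by 0.43 to 0.62. The second FGB probe set changed by -0.13 ± 0.11 (limma adjusted p = 0.630 over probe sets), at percentiles 7.11 to 15.6 of the agonism arrays, and the second CFB probe set by -0.01 ± 0.15. Of the acute-phase list LCN2 fell by 0.93 ± 0.07 and 0 of 16 rose, while SERPINA3 changed by 0.21 ± 0.07 (limma adjusted p = 0.0860). Of 28 other complement genes 0 rose and 3 fell: CLU (-0.67 ± 0.07), CFI (-0.60 ± 0.07) and SERPING1, the C1 inhibitor (-0.33 ± 0.08). NFKBIZ fell by 0.97 ± 0.13, the chemokine CCL20 by 0.56 ± 0.09, IL1R1 by 0.52 ± 0.09 and IL1RN by 0.51 ± 0.07, among 6 of 19 genes of the NF-kB and IL-1 list that fell, and 0 rose. JUNB (-0.29 ± 0.07) and the kinase JAK2 (-0.30 ± 0.08) fell in the IL-6 and STAT3 list of 22, and 0 rose. Of the coagulation list 0 of 24 rose and 4 fell, led by TFPI2 (-1.11 ± 0.09) and F8, factor VIII (-0.32 ± 0.07). FOXA1 fell by 0.50 ± 0.08, CPAMD8, of the macroglobulin family, fell by 0.31 ± 0.08, and NRARP rose by 1.01 ± 0.07.

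**Figure D2:**
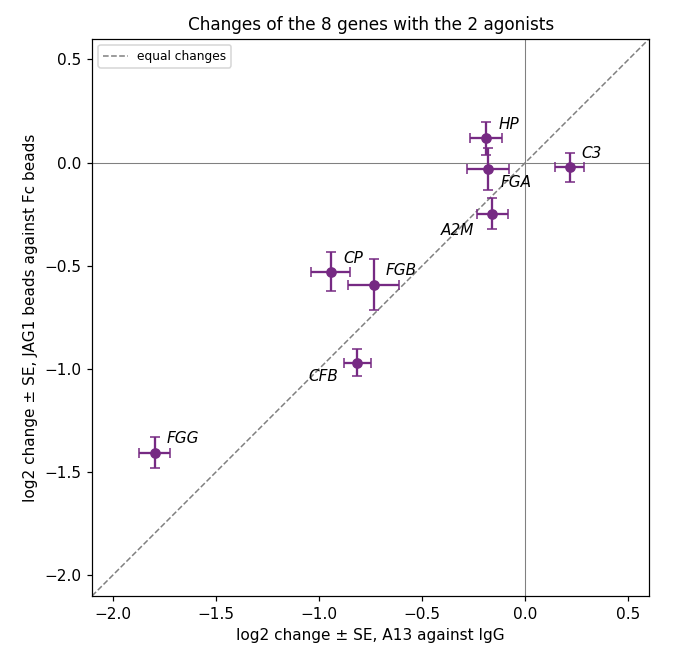
Log2 change ± SE of each of the 8 genes with A13 against IgG (horizontal) and with JAG1 beads against Fc beads (vertical); the dashed line marks equal changes, and the 2 comparisons share no arrays. FGG, CP, FGB and CFB lie at -0.53 or below on both axes, and the other 4 genes within 0.25 of 0 on both.

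The difference of the 2 agonist effects, JAG1 beads against Fc beads minus A13 against IgG, was tested as 1 contrast. It passed for 0 of 8 genes by limma, against 0.182% of all genes. An unadjusted limma p under 0.05 was held by 4 of the 8 and by 1173 of all 19775 genes. FGG differed by 0.39 (95% interval 0.17 to 0.61, adjusted p = 0.264), that is, its fall was smaller with JAG1 beads, and CP by 0.41 (0.13 to 0.69, adjusted p = 0.525). The CP probe set 204846_at passed over all probe sets, with 0.60 ± 0.10 (limma adjusted p = 0.0400), and the other CP probe sets did not. FGB differed by 0.14 (-0.23 to 0.52), CFB by -0.16 (-0.35 to 0.04), A2M by -0.09 (-0.31 to 0.14), FGA by 0.15 (-0.15 to 0.45), HP by 0.31 (0.07 to 0.54) and C3 by -0.24 (-0.45 to -0.03). For NRARP the difference passed (-0.89 ± 0.10), NRARP rising less with JAG1 beads.

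Fc beads were set against soluble IgG, both without agonist, which differ by the beads with Fc and also by the 20 µg/ml of soluble antibody, so that the effects of these cannot be told apart. FGG was 8.79, 8.86 and 8.86 with Fc beads, against 9.23, 9.25 and 9.29 with IgG, and fell by 0.42 ± 0.07 (limma adjusted p = 0.005). A2M was 11.10, 11.07 and 10.94 with Fc beads, against 10.66, 10.71 and 10.63 with IgG, and rose by 0.37 ± 0.08 (limma adjusted p = 0.014). The groups did not overlap for either gene, but the A2M call was lost with only these 2 groups in the fit (adjusted p = 0.0709), with the mean of its probe sets (0.15, adjusted p = 0.146), and without Fc array 1 or 2 or IgG array 1 or 3 (adjusted p from 0.0520 to 0.0853). CFB changed by 0.25 ± 0.07 (limma adjusted p = 0.0598) and passed with an offset of 16, the trend and robust variance model, among genes above the median probe set, and without IgG array 2 (adjusted p from 0.0235 to 0.0405). C3 changed by 0.20 ± 0.07 (limma adjusted p = 0.157). The second A2M probe set, 1558450_at, changed by -0.06 ± 0.08 (limma adjusted p = 0.794 over probe sets). CP (-0.10 ± 0.09), FGB (-0.04 ± 0.13), FGA (-0.10 ± 0.10) and HP (-0.17 ± 0.08) did not pass. In all 1 of 8 rose and 1 fell, against 1.64% higher and 0.44% lower of all genes. In the lists SERPINA3 rose by 0.49 ± 0.07, CD55, a membrane inhibitor of complement activation, by 0.51 ± 0.10, LIF by 0.81 ± 0.11, CXCL8 by 1.03 ± 0.15 and RELB by 0.67 ± 0.09. Of the IL-6 and STAT3 list 4 of 22 rose and 0 fell, and of the NF-kB and IL-1 list 5 of 19 rose and 0 fell. MYC rose by 0.44 ± 0.07, and NRARP changed by 0.08 ± 0.07, which did not pass.

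Continued DAPT was set against DMSO in the agonism experiment to show the baseline of these plates. FGB, FGG, A2M and CFB rose and C3 fell. FGB was 7.89, 7.48 and 7.52 with DAPT, against 6.89, 6.82 and 6.89 with DMSO, and rose by 0.76 ± 0.13 (limma adjusted p = 0.000342). FGG was 9.68, 9.60 and 9.62 with DAPT, against 8.88, 8.91 and 9.03 with DMSO, and rose by 0.69 ± 0.07 (limma adjusted p = 7.95e-06). Both chain genes thus stood at their highest of the 6 groups with DAPT. A2M was 10.51, 10.54 and 10.61 with DAPT, against 9.89, 10.21 and 9.94 with DMSO, and rose by 0.54 ± 0.08 (limma adjusted p = 8.73e-05). CFB was 9.06, 8.89 and 9.05 with DAPT, against 8.39, 8.54 and 8.54 with DMSO, and rose by 0.51 ± 0.07 (limma adjusted p = 4.42e-05). C3 was 8.72, 8.58 and 8.54 with DAPT, against 8.87, 9.08 and 8.99 with DMSO, and fell by 0.37 ± 0.07 (limma adjusted p = 0.00107), its lowest of the 6 groups. The groups did not overlap for any of these 5 genes. The rises of A2M, CFB and FGB rest on the brighter of 2 probe sets. The second A2M probe set, 1558450_at, close to the array median, changed by -0.003 ± 0.077 (limma adjusted p = 0.986 over probe sets). The dim second CFB probe set, 211920_at, changed by 0.13 ± 0.15 (limma adjusted p = 0.642 over probe sets), and CFB lost its call when _x_at and _s_at probe sets were dropped. The second FGB probe set changed by 0.23 ± 0.11 (limma adjusted p = 0.182 over probe sets). HP changed by -0.22 ± 0.08 (limma adjusted p = 0.0560), and passed without DMSO array 2 (adjusted p = 0.0421) or DAPT array 1 (adjusted p = 0.0249). FGA changed by 0.004 ± 0.101 and did not pass. In all 4 of 8 rose and 1 fell, against 12.4% higher and 8.31% lower of all genes, with a median of 0.32 against 0.02 over all genes.

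CP depended on the probe set. Its brightest, 1558034_s_at, was 10.41, 10.44 and 10.25 with DAPT, against 10.27, 10.07 and 10.37 with DMSO, and changed by 0.13 ± 0.09 (limma adjusted p = 0.402). The other 3 rose by 0.43 to 0.55, each passing over all probe sets (limma adjusted p from 0.000333 to 0.000697), and the mean of the 4 rose by 0.39 (limma adjusted p = 0.000638). The arrays of the brightest probe set overlap between DAPT and DMSO, and those of the other 3 do not.

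**Figure D3:**
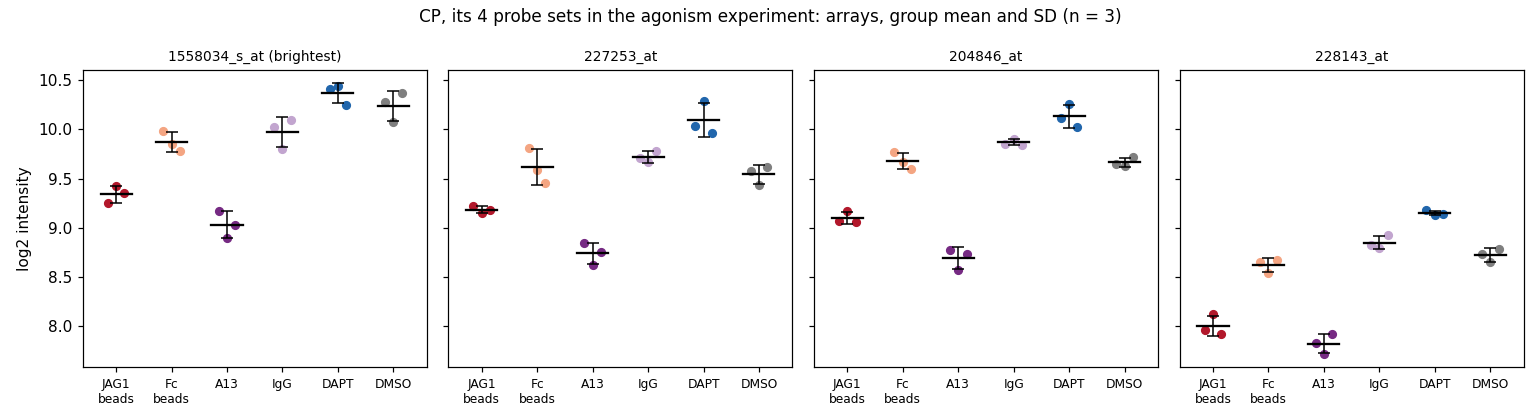
Log2 intensity of the 4 single-gene probe sets of CP in the 6 groups of the agonism experiment; points are arrays, lines group means and bars SD (n = 3). All 4 are lowest with A13 and highest with DAPT, while DMSO is second highest for 1558034_s_at (10.24) and below IgG for the other 3.

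Of the other acute-phase genes LCN2 rose by 0.62 ± 0.07, and SERPINA3 (-1.14 ± 0.07) and LBP (-0.48 ± 0.10) fell, 1 higher and 2 lower of 16 (median 0.03, against 0.02 over all genes). Of the other complement genes 6 of 28 rose and 1 fell, among the risers CLU (0.53 ± 0.07), CD55 (0.53 ± 0.10), the terminal component C5 (0.31 ± 0.06) and SERPING1 (0.29 ± 0.08). Of the IL-6 and STAT3 list 7 of 22 rose and 0 fell, with JAK1 at 0.48 ± 0.08, STAT3 at 0.40 ± 0.06 and JAK2 at 0.39 ± 0.08. Of the NF-kB and IL-1 list 6 of 19 rose and 2 fell, with IL1RN at 0.65 ± 0.07 and IL1R1 at 0.45 ± 0.09. Of the coagulation list 4 of 24 rose and 1 fell, with F3, tissue factor, at 0.46 ± 0.08 and F12, factor XII, at -0.32 ± 0.05. FOXA1 rose by 0.75 ± 0.08. Of the macroglobulin list HSPA5, a chaperone that can bind A2M at the cell surface, rose by 0.21 ± 0.07. MYC (-1.21 ± 0.07) and NOTCH3 (-0.73 ± 0.14) fell.

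The IgG plates, from which DAPT had been washed out, were set against continued DAPT. The 2 groups also differ by the antibody and by the late dose at 22 h. C3 rose and FGB, FGG and CP fell. C3 was 9.20, 9.37 and 9.27 with IgG, against 8.72, 8.58 and 8.54 with DAPT, and rose by 0.67 ± 0.07 (limma adjusted p = 5.41e-06), 1.59-fold. FGB was 6.78, 6.93 and 6.82 with IgG, against 7.89, 7.48 and 7.52 with DAPT, and fell by 0.79 ± 0.13 (limma adjusted p = 0.000441). Neither gene's groups overlapped, and the FGB arrays with IgG overlapped those with DMSO (6.89, 6.82 and 6.89). The second FGB probe set, at percentiles 7.11 to 15.6 of the agonism arrays, changed by -0.03 ± 0.11 (limma adjusted p = 0.910 over probe sets). FGG fell by 0.37 ± 0.07 (limma adjusted p = 0.00324). CP fell by 0.39 ± 0.09 (limma adjusted p = 0.0122), a call lost without DAPT array 1 or 2 or IgG array 2 (adjusted p from 0.0503 to 0.0816). Its other 3 probe sets fell by 0.27 to 0.38 and passed over all probe sets. A2M (0.11 ± 0.08), CFB (0.17 ± 0.07), HP (0.22 ± 0.08) and FGA (0.03 ± 0.10) did not pass. In all 1 of 8 rose and 3 fell, against 4.15% higher and 5.62% lower of all genes, with a median of 0.07 against 0.03.

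In the same comparison SERPINA3 (1.49 ± 0.07), LBP (1.07 ± 0.10) and the iron carrier TF (0.57 ± 0.09) rose and LCN2 fell by 0.37 ± 0.07, among 4 higher and 1 lower of 16 acute-phase genes. CFI (0.39 ± 0.07), CD55 (0.45 ± 0.10) and MASP1, a protease of the lectin pathway (0.22 ± 0.07), rose and CLU fell by 0.37 ± 0.07, 3 higher and 1 lower of 28. CEBPB, a transcription factor of acute-phase promoters, rose by 0.33 ± 0.05, STAT3 by 0.26 ± 0.06 and CEBPD by 0.23 ± 0.07, and JAK2 fell by 0.33 ± 0.08. In the NF-kB and IL-1 list 4 of 19 rose and 2 fell, with NFKBIZ at -0.93 ± 0.13 and RELB at 0.42 ± 0.09. TFPI2 fell by 0.94 ± 0.09 among 4 lower and 0 higher of 24 coagulation genes, and CD109 fell by 0.89 ± 0.07.

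Against DMSO the IgG plates were higher in CFB, A2M, FGG and C3. CFB was 9.10, 9.30 and 9.11 with IgG, against 8.39, 8.54 and 8.54 with DMSO, and was higher by 0.68 ± 0.07 (limma adjusted p = 3.73e-06). A2M was 10.66, 10.71 and 10.63 with IgG, against 9.89, 10.21 and 9.94 with DMSO, and was higher by 0.65 ± 0.08 (limma adjusted p = 1.19e-05). Both groups lay apart for each gene, but the second probe sets did not pass. That of A2M changed by 0.13 ± 0.08 (limma adjusted p = 0.262 over probe sets) and that of CFB by 0.14 ± 0.15 (limma adjusted p = 0.537 over probe sets), and CFB lost its call when _x_at and _s_at probe sets were dropped. FGG (0.32 ± 0.07, limma adjusted p = 0.00333) and C3 (0.30 ± 0.07, limma adjusted p = 0.00326) were also higher. The brightest CP probe set was lower by 0.26 ± 0.09 (limma adjusted p = 0.0415), with overlapping arrays, but the mean of the 4 CP probe sets was higher by 0.06 and 204846_at by 0.20 ± 0.07 (limma adjusted p = 0.0452 over probe sets), so CP has no settled direction here. The call of the brightest probe set was also lost with only these 2 groups in the fit (adjusted p = 0.0865) and without DMSO array 1 or 3 or IgG array 1 or 2 (adjusted p from 0.0577 to 0.212). FGB (-0.03 ± 0.13), HP (0.003 ± 0.079) and FGA (0.03 ± 0.10) did not pass. In all 4 of 8 were higher and 1 lower, against 17.9% higher and 12.6% lower of all genes, so the members' share is to be read against a large background. STAT3 (0.65 ± 0.06), CEBPB (0.44 ± 0.05), JUNB (0.48 ± 0.07) and CEBPD (0.44 ± 0.07) were higher, among 12 of 22 IL-6 and STAT3 genes higher and 0 lower, and 6 of 19 NF-kB and IL-1 genes were higher and 3 lower. Of 16 acute-phase genes 6 were higher and 0 lower, LBP by 0.59 ± 0.10, and of 28 complement genes 4 were higher and 2 lower, CD55 by 0.99 ± 0.10 and CFI by 0.62 ± 0.07. Earlier DAPT, the antibody and the late DMSO dose cannot be told apart in this comparison.

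**Figure D4:**
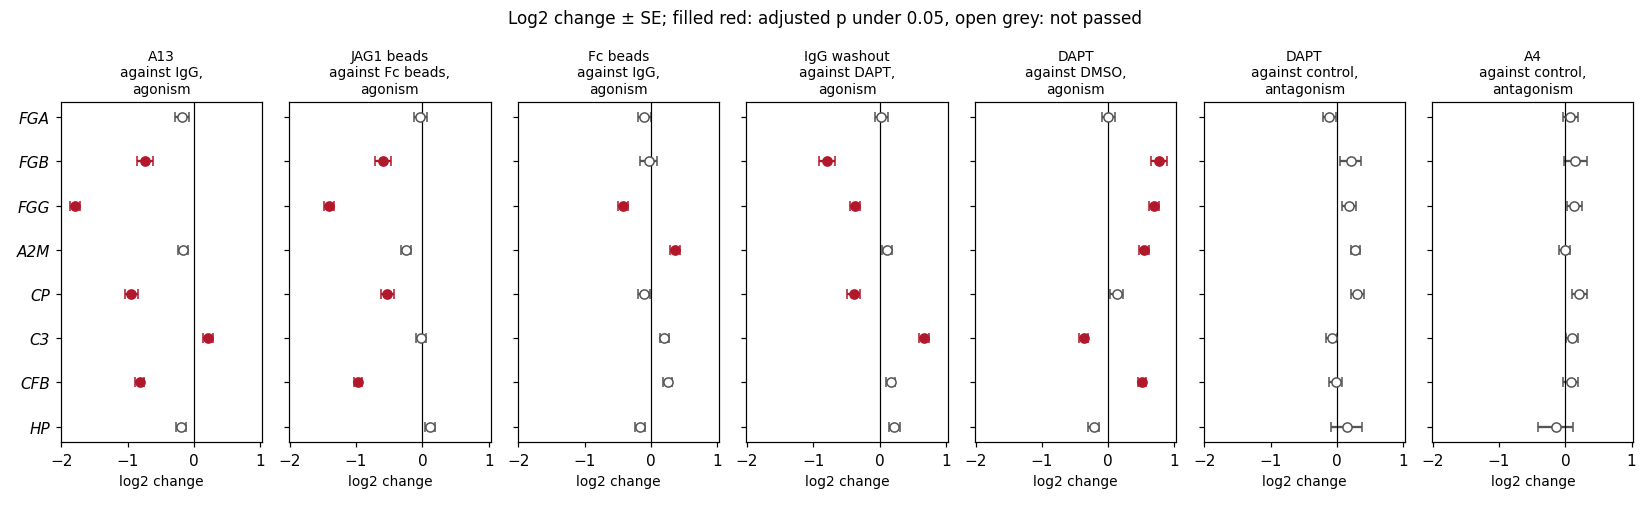
Log2 change ± SE (horizontal axis) of the 8 genes in 7 comparisons, 1 panel each; filled red points passed at an adjusted p under 0.05 over all genes and open grey points did not. FGG and FGB lie left of 0 with A13, JAG1 beads and washout against DAPT and right of 0 with DAPT in the agonism experiment, C3 lies on the other side of 0 from FGG with A13, washout and that DAPT treatment, and no point of the antagonism experiment passed.

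The group levels in the agonism experiment were also put in order. FGG stood at 9.63 ± 0.04 with DAPT (SD, n = 3), 9.26 ± 0.04 with IgG, 8.94 ± 0.08 with DMSO, 8.84 ± 0.04 with Fc beads, 7.46 ± 0.18 with A13 and 7.43 ± 0.07 with JAG1 beads, and only the last 2 neighbours overlapped. FGB stood at 7.63 ± 0.23 with DAPT, then at 6.87, 6.84 and 6.81 with DMSO, IgG and Fc beads, which overlapped, and at 6.21 ± 0.27 and 6.11 ± 0.21 with JAG1 beads and A13, which overlapped too. CFB ran from Fc beads (9.42 ± 0.01) through IgG (9.17 ± 0.11), DAPT (9.002 ± 0.10) and DMSO (8.49 ± 0.09) to JAG1 beads (8.45 ± 0.04) and A13 (8.35 ± 0.04), where DMSO and JAG1 beads overlapped. C3 was highest with A13 (9.49 ± 0.04), Fc beads (9.48 ± 0.07) and JAG1 beads (9.46 ± 0.09), which overlapped, and lower with IgG (9.28 ± 0.08), DMSO (8.98 ± 0.10) and DAPT (8.61 ± 0.09). A2M ran from Fc beads (11.04 ± 0.08) to DMSO (10.01 ± 0.17), with JAG1 beads and IgG overlapping, and DAPT and A13 overlapping. For HP 1 pair of neighbours, JAG1 beads and Fc beads, did not overlap (gap 0.12), and for FGA every pair overlapped.

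The antagonism experiment asked what Notch blockade changed in cells that had not been pretreated. None of the 8 genes passed with DAPT or with A4. With DAPT, A2M was 10.26, 10.25 and 10.29, against 9.96, 10.01 and 9.98 in controls, and changed by 0.28 ± 0.07 (3 arrays against 3, limma adjusted p = 0.153). CP was 10.61, 10.48 and 10.26 with DAPT, against 10.24, 10.09 and 10.08 in controls, and changed by 0.31 ± 0.10 (limma adjusted p = 0.245). The groups of each gene did not overlap, but the lowest CP array with DAPT and the highest control nearly met. CP passed with the mean of its 4 probe sets (0.44, limma adjusted p = 0.0359). As group means without a test, 204846_at was 10.42 with DAPT and 9.80 in controls. Probe set 228143_at was 9.58 and 9.08, and 227253_at was 10.61 and 10.27. The DAPT and control arrays did not overlap for any of them. FGG was 8.05, 8.14 and 8.07 with DAPT, against 7.85, 7.80 and 8.05 in controls, and changed by 0.19 ± 0.10, its lowest DAPT array level with its highest control. FGB changed by 0.21 ± 0.16 with its brightest probe set and by -0.45 ± 0.11 with the other (limma adjusted p = 0.200 over probe sets), so the 2 disagree in sign. The 2 A2M probe sets disagree as well, the second, 1558450_at, changing by -0.21 ± 0.13 (limma adjusted p = 0.616 over probe sets). CFB (-0.01 ± 0.10), C3 (-0.07 ± 0.08) and FGA (-0.11 ± 0.10) had overlapping groups. HP was 7.73, 7.56 and 7.63 with DAPT, against 7.34, 8.12 and 7.002 in controls, and changed by 0.15 ± 0.23. Without control 2 the change was 0.47 and passed (limma adjusted p = 0.0287), in a fit that called 1198 genes in place of 70. Of 8 genes 0 passed by limma, against 0.354% of all genes. An unadjusted limma p under 0.05 was held by 2 of the 8 and by 2572 of all 19775 genes.

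With A4, 0 of 8 passed by limma, against 0.101% of all genes. An unadjusted limma p under 0.05 was held by 0 of the 8 and by 1836 of all 19775 genes. CP was 10.44 and 10.26 with A4, against 10.24, 10.09 and 10.08 in controls, and changed by 0.21 ± 0.11 (2 arrays against 3, 95% interval -0.05 to 0.47). The other CP probe sets are given here as group means without a test. Probe set 204846_at was 10.26 with A4 and 9.80 in controls, and 228143_at was 9.51 and 9.08, with no overlap for either. Probe set 227253_at was 10.37 and 10.27, with overlapping arrays. FGG was 8.20 and 7.87 with A4, against 7.85, 7.80 and 8.05 in controls (0.13, interval -0.12 to 0.39). A2M was 10.08 and 9.86 with A4, against 9.96, 10.01 and 9.98 in controls (-0.01, interval -0.20 to 0.17). The A4 arrays of FGG overlapped the controls, and those of A2M lay on either side of them. The changes of FGA (0.08 ± 0.11), FGB (0.15 ± 0.18), C3 (0.10 ± 0.09), CFB (0.08 ± 0.11) and HP (-0.15 ± 0.26) did not pass. The second FGB probe set had a mean of 6.64 with A4 and 7.07 in controls, so the 2 FGB probe sets disagree in sign. Without control 2 the fit called 96 genes in place of 20, with 0 of the 8 among them. Set directly against DAPT, A4 differed for 0 of 8 genes by limma, and 0% of all genes passed, though 1628 had an unadjusted p under 0.05. A2M was the 1 member among these (-0.29 ± 0.08, limma adjusted p = 0.600). In both antagonist groups SERPINA3 was the 1 passing gene of 16 on the acute-phase list, lower by 0.96 ± 0.10 with A4 and by 0.71 ± 0.09 with DAPT, each against the same 3 controls. MYC (-1.15 ± 0.11 with A4 and -1.34 ± 0.10 with DAPT) fell in both as well.

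**Figure D5:**
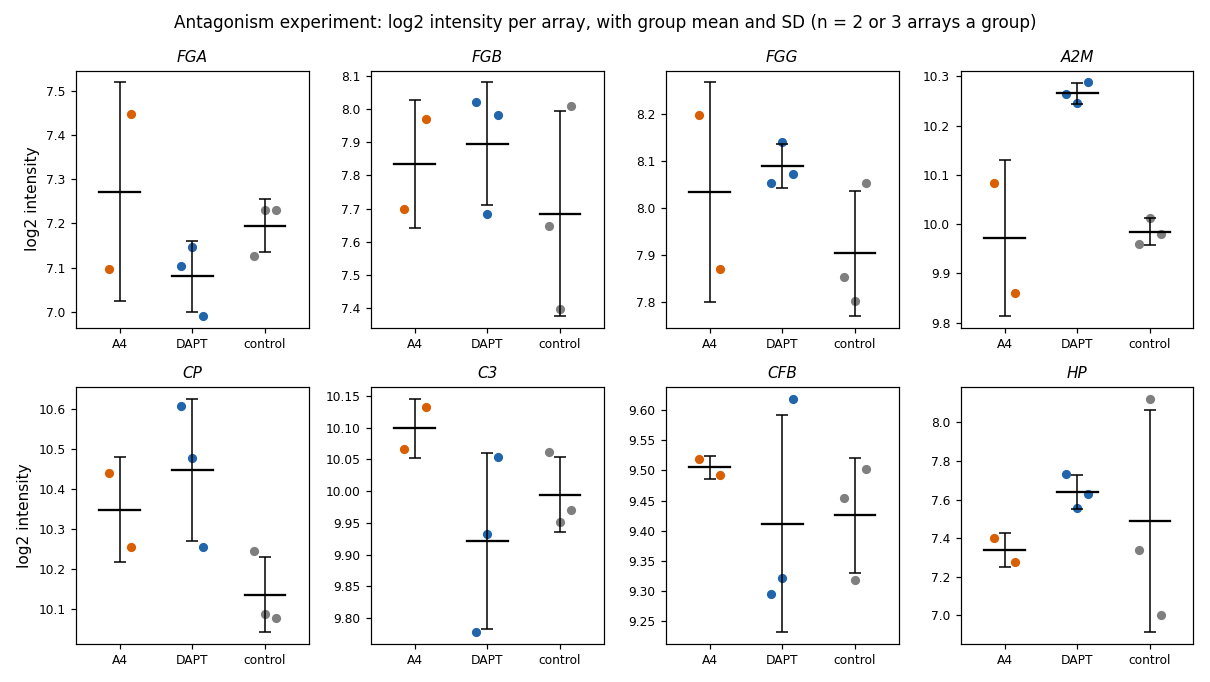
Log2 intensity (vertical axis, a separate range for each gene) of the 8 genes in the antagonism experiment; points are arrays, lines group means and bars SD (A4 n = 2, DAPT and control n = 3). A2M with DAPT lies above A4 and control, and HP spreads most in controls, where control 2 stands at 8.12.

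DAPT was used in both experiments, on separate arrays, and the difference of its effects, antagonism minus agonism, was tested over all 26 arrays. It passed for FGG (-0.50 ± 0.12, limma adjusted p = 0.0196) and CFB (-0.52 ± 0.11, limma adjusted p = 0.00961), both of which rose with DAPT in the agonism experiment and did not pass in the antagonism experiment; 2 of 8 passed, against 6.12% of all genes. FGB differed by -0.55 ± 0.21 (limma adjusted p = 0.108), C3 by 0.30 ± 0.10 (limma adjusted p = 0.0882), A2M by -0.26 ± 0.10 (limma adjusted p = 0.139), CP by 0.18 ± 0.14, HP by 0.37 ± 0.22 and FGA by -0.12 ± 0.14. SERPINA3 (0.43 ± 0.11) and LBP (0.57 ± 0.13) differed in the direction opposite to FGG and CFB. The CP value is that of its brightest probe set, and its sign was reversed for 227253_at alone. The means of that probe set were 10.61 with DAPT and 10.27 in controls in the antagonism experiment. In the agonism experiment they were 10.10 with DAPT and 9.54 with DMSO. With only the 4 groups in the fit neither FGG (adjusted p = 0.0711) nor CFB (adjusted p = 0.100) passed. The CFB call was also lost with the mean of its 2 probe sets (-0.25, adjusted p = 0.237). With _x_at and _s_at probe sets dropped the CFB difference changed sign (0.0257, limma adjusted p = 0.967). FGG lost its call without agonism DMSO array 1 (adjusted p = 0.0600). C3 passed with repeated quantile normalization (0.36, adjusted p = 0.0236) and among genes above the median probe set (adjusted p = 0.0493), FGB with the mean of its probe sets (-0.62, adjusted p = 0.0156), A2M without DMSO array 2 (adjusted p = 0.0162), and FGB and HP without antagonism control 2 (adjusted p = 0.0237 and 0.00306). Earlier treatment, cell number, IgG, the late dose at 22 h and the intensity scale of the arrays differed between the experiments as well and cannot be told apart here.

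Likeness of pattern was described by Pearson's r over the 26 arrays, each gene centred on its experiment's mean. Arrays of a group share their treatment, so r holds group differences as well as spread within groups. For FGA and HP no comparison passed. The HP controls of the antagonism experiment alone ran from 7.002 to 8.12 (SD 0.57), so its r rests largely on spread within that group. FGG was much like CYP4Z2P (r = 0.966) and GM2A (0.965). CP was most like SMIM14 (0.948), CEP128 (0.947) and MSRB1 (0.947), and FGB like CEP128 (0.938), INPP4B (0.934) and CARD19 (0.930). C3 was most like LBP (0.928), ARID5A (0.916) and ID4 (0.912), and CFB like the heat-shock protein HSPB1 (0.931), PDZK1IP1 (0.923) and LINC01503 (0.906). A2M was most like EML2 (0.936), NBR1 (0.935) and MBTPS1 (0.932), HP like HTR7 (0.884), LRRC38 (0.880) and FBLL1 (0.869), and FGA like OR2J3 (0.699), ITIH6 (0.673) and PANTR1 (0.669). Among the members FGG ran with CP (r = 0.908), FGB (0.876) and CFB (0.669), while C3 ran against CP (-0.756), FGB (-0.755) and FGG (-0.692). A2M was highest with CFB (0.536) and C3 (0.438), and HP stayed within 0.18 of 0 with every other member.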

How the data were processed

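Probe set intensities of 26 Affymetrix arrays were used as the authors deposited them, 1 linear intensity per probe set and array, from 7.12 to 32597. The submitters' processing notes list RMA and R 2.10 without saying what each did. RMA usually includes quantile normalization, which would reduce a shift shared by most transcripts. The table is linear, so log2 was taken, as planned for that case.

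Of 54675 probe sets 41091 have 1 gene symbol in the platform annotation, 1801 several and the rest none; 41037 gene IDs matched the RefSeq table and 0 symbols changed. Each of 19775 genes was represented by its brightest single-gene probe set. The table held 0 columns of other samples. Groups follow the treatment labels; how precise the changes are depends on how many arrays there are, and the DAPT change had a median standard error of 0.0877 on antagonism arrays and 0.0811 on agonism arrays. SDs of log2 differences between arrays of a group ran from 0.14 to 0.35, the highest between antagonism controls 2 and 3.

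The test was limma 3.58.1 (lmFit, contrasts.fit and eBayes without trend or robust options, run in R 4.3.3), with all groups of an experiment in 1 fit, with Benjamini-Hochberg adjustment over all genes and a threshold of 0.05. Every adjusted p is from limma; 95% intervals use its moderated t distribution. The fit was tested on simulated data. The 11 comparisons were recomputed under 8 other settings and with each array left out. Named genes were all 8 members, up to 4 passing genes of each list with the smallest adjusted p, NOTCH3, NRARP, MYC and SERPINA3, and 3 most alike genes a member, of which 1 is not reported here. The members and lists were chosen with earlier results of these data known. Figures used matplotlib 3.10.9 in Python 3.11.15.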

Additional observations from a re-analysis of the deposited data

Results flagged for a closer look

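The DAPT effect of FGG and of CFB differed between the experiments in the test of the difference itself. For FGG the difference, antagonism minus agonism, was -0.50 on the log2 scale: FGG was 8.05, 8.14 and 8.07 with DAPT, against 7.85, 7.80 and 8.05 in controls, in the antagonism experiment, and 9.68, 9.60 and 9.62 with DAPT, against 8.88, 8.91 and 9.03 with DMSO, in the agonism experiment. For CFB the difference was -0.52: CFB was 9.29, 9.32 and 9.62 with DAPT, against 9.45, 9.32 and 9.50 in controls, in the antagonism experiment, and 9.06, 8.89 and 9.05 with DAPT, against 8.39, 8.54 and 8.54 with DMSO, in the agonism experiment. Groups had 2 or 3 arrays, too few to judge single outlying arrays within a group. With each array left out in turn, the FGG difference lost its call without agonism DMSO array 1 (limma adjusted p = 0.0600). The CFB difference kept its call in each of those fits. Both lost it with only the 4 groups in the fit (limma adjusted p = 0.0711 for FGG and 0.100 for CFB), and CFB also with the mean of its probe sets (limma adjusted p = 0.237). With _x_at and _s_at probe sets dropped the CFB difference changed sign (0.0257, limma adjusted p = 0.967).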

How the results depend on the processing

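The 88 changes (8 genes in 11 comparisons) were recomputed 1260 times, and 27 passed in the fit reported. Of these 27, 17 kept their direction and their call under each setting and each left-out array that was run. Calls were lost 33 times and gained 22 times, and 3 of the lost calls also changed sign, all with another choice of probe set. These were CP in IgG plates against DMSO (0.0602 with the mean of its probe sets and 0.1771 when those ending in _x_at or _s_at were dropped, in place of -0.26) and the CFB difference of the DAPT effects (0.0257 with the same probe sets dropped, in place of -0.52). A further 44 values that passed in neither fit lay on the other side of 0 and are counted as unchanged.

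Dropping those probe sets leaves 6 of the 8 genes, without FGG and HP, whose only probe sets end in _s_at, and gives CFB its dim probe set. FGG was thus absent under this setting, though it had passed in each comparison named next. The number of the genes that passed was then 2 in place of 5 for IgG plates against DMSO, 2 in place of 5 for A13, 2 in place of 4 for JAG1 beads, 1 in place of 2 for Fc beads and 0 in place of 2 for the difference of the DAPT effects. With only the compared groups in the fit it was 1 in place of 2 for Fc beads and 0 in place of 2 for that difference, and with the mean of all probe sets 1 in place of 2 for Fc beads and 1 in place of 0 for DAPT in the antagonism experiment. With _x_at and _s_at probe sets dropped, FGG was absent and CFB and CP were read from other probe sets. The cause of the other changes in these numbers was not tested. With each array left out in turn the number ran from 0 to 1 for DAPT in the antagonism experiment (1 without control 2), from 1 to 3 for Fc beads, and from 1 to 4 for the difference of the DAPT effects (4 without antagonism control 2, 1 without agonism DMSO array 1). No paired analysis was possible because the labels carry no replicate numbers. Low signal limits FGA, HP, FGB with A13 and JAG1 beads, and the second probe sets of FGB and CFB.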
